A study of Mus musculus with 19 samples.

Results

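The TNF superfamily joins ligands that are mostly made as trimers on the cell surface with receptors that gather them. Described here are 10 of its genes in mouse retinal microglia, 5 ligands (*Tnf*, *Tnfsf8*, *Tnfsf9*, *Tnfsf12* and *Tnfsf13b*) and 5 receptors (*Tnfrsf1a*, *Tnfrsf1b*, *Tnfrsf11a*, *Tnfrsf13b* and *Tnfrsf17*), taken by symbol from the 27299 genes of the table. Bulk RNA-seq compared 6 samples of microglia taken 3 days after lasering (CNV d3, with 6 burns set in each eye, which break the pigment epithelium and induce choroidal neovascularization) with 6 samples from unlasered controls. Mice of both groups were 8 weeks old. The labels name C57BL/6J mice, and the methods name *Cx3cr1* GFP/+ mice on this background, in which a reporter replaces 1 copy of a gene of microglia and monocytes. The cells were sorted as positive for CD45 (low in the methods), CD11b and CX3CR1 and negative for Ly6C, found on monocytes, and Ly6G, found on neutrophils. The labels do not say that the samples came from separate animals, so the p-values measure only the spread between these samples.

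TNF itself is held on the membrane until the protease ADAM17 releases it, and it signals through TNFR1 (*Tnfrsf1a*), which carries a death domain, and TNFR2 (*Tnfrsf1b*), which does not. Microglia are a main source of TNF in the retina and brain and carry both receptors. A second branch of the family, BAFF (*Tnfsf13b*) with its relative APRIL (*Tnfsf13*) and the receptors TACI (*Tnfrsf13b*) and BCMA (*Tnfrsf17*), is known chiefly from the survival of B and plasma cells.

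Values are given as normalized counts, which are reads on a gene over a size factor for the depth of the sample. Samples held 23532260 to 29523018 reads on genes in CNV d3 and 10963178 to 22335233 in the controls, so every CNV d3 sample was deeper than every control. The microglia markers carried the label in both groups, with a summed level over 8 genes of 909414 to 1072940 normalized counts in the controls and 482428 to 729409 in CNV d3. Of these 8 markers, 6 fell. The summed level of 12 monocyte markers was 1139 to 2444 in the controls and 3054 to 7413 in CNV d3, with 6 of the 12 higher by test. *Ly6c2* and *Chil3* had no reads in any control. For 8 dendritic cell markers the sums were 23.8 to 514 and 331 to 2276, with 5 higher, and *Cd209a* and *Clec10a* had no reads in any control. The part of these cell types and of depth in the results was not tested, beyond the thinning of reads described with the results. In bulk samples, fewer cells of a type and less RNA per cell cannot be told apart.

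One ligand rose and 2 receptors fell at CNV d3. *Tnf* was higher, *Tnfrsf17* and *Tnfrsf1a* were lower, and the other 7 genes did not pass the test (limma, Benjamini-Hochberg adjusted p under 0.05 over all genes). Of all genes, 8.29% were higher and 4.57% were lower by the same test, against 1 and 2 of 10 here. With the added demand of an absolute log2 fold change above 1.5, 3.91% of all genes were higher and 1.07% lower, and none of the 10 genes met it. These shares include genes with few reads, while each of the 10 had a mean of at least 10 normalized counts, as 13614 of all genes did. A fit of only the 12753 genes with at least 10 normalized counts in 6 samples called larger shares, 2160 higher and 1544 lower. In that fit 1 of the 10 was higher and 3 were lower. The median log2 fold change of the 10 genes was -0.03, and that of all genes was 0.15. *Tnfsf12* was the single gene with every CNV d3 sample above every control, which held for 4.64% of all genes. *Tnfrsf17* was the single gene with every CNV d3 sample under every control, which held for 2.83%.

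**Figure D1:**
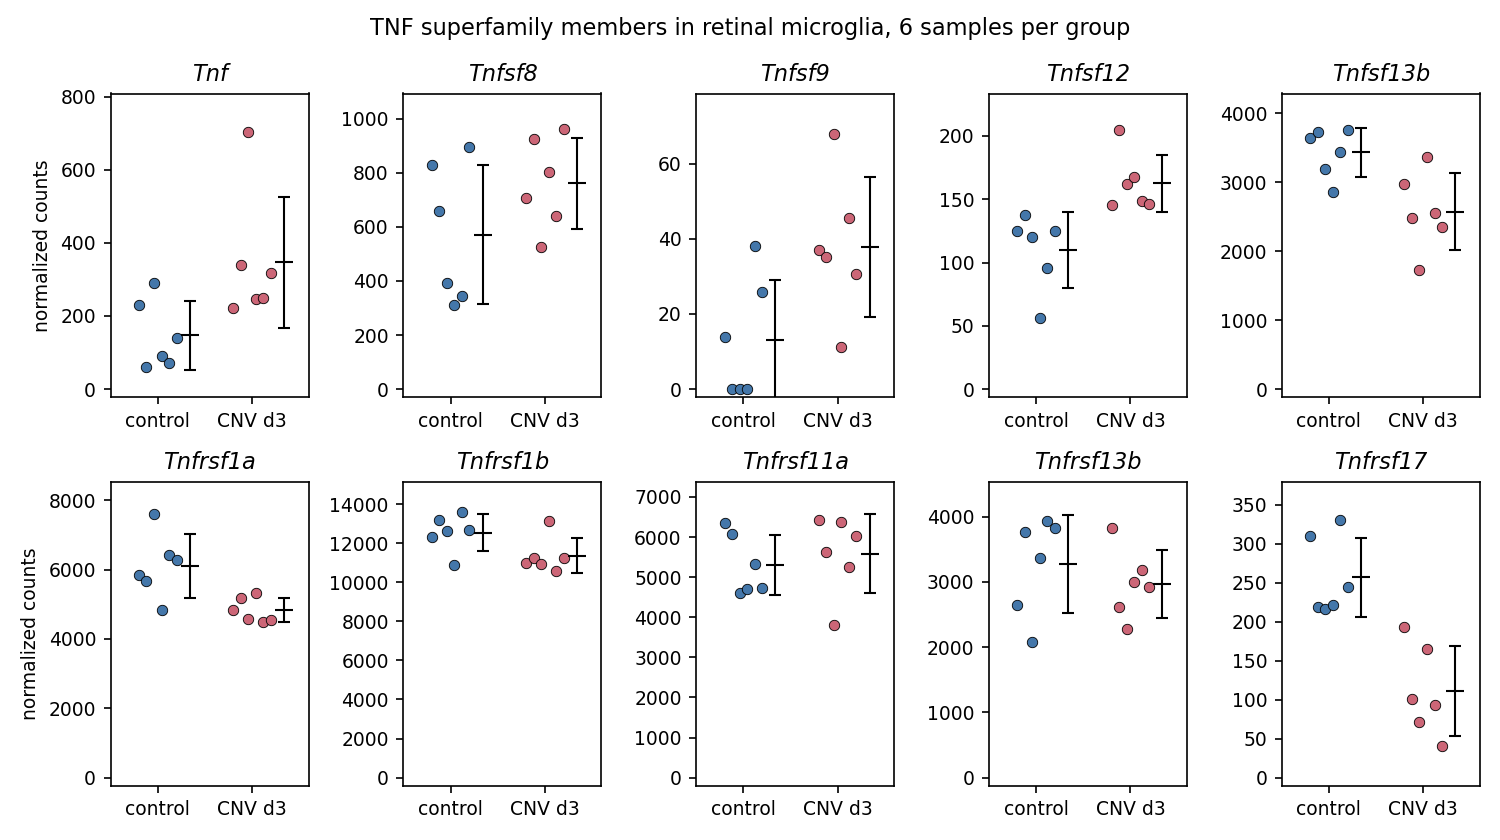
Normalized counts (linear axis that includes 0) of the 10 genes in each control (blue) and CNV d3 (red) sample, replicates 1 to 6 from left to right, with the mean and SD of each group as a bar, cut off under 0 for *Tnfsf9*. The groups do not overlap for *Tnfsf12* and *Tnfrsf17*, and 1 CNV d3 sample of *Tnf* stands at 702 normalized counts.

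*Tnf* and *Tnfrsf17* were the genes that passed the test with the larger changes, and *Tnfrsf13b*, which encodes a receptor for the ligands that BCMA also binds, did not pass. The 250 bases before the RefSeq start of these 3 genes (GRCm38.p6, 5′ to 3′ on the strand of the gene) are shown to set their core promoters side by side. The stretches are chr17:35202008-35202257 on the minus strand for *Tnf*, chr16:11313559-11313808 on the plus strand for *Tnfrsf17* and chr11:61126505-61126754 on the plus strand for *Tnfrsf13b*. Capitals mark the TATA box letters TATAAA.
Tnf: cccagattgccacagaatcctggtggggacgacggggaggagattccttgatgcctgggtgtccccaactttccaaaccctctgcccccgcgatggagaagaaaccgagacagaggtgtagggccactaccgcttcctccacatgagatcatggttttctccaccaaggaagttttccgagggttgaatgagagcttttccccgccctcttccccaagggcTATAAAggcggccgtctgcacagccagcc
Tnfrsf17: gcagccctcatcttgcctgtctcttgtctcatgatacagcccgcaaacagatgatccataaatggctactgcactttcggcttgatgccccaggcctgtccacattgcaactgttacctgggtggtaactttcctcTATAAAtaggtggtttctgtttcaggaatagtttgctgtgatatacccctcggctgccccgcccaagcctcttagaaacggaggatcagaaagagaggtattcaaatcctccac
Tnfrsf13b: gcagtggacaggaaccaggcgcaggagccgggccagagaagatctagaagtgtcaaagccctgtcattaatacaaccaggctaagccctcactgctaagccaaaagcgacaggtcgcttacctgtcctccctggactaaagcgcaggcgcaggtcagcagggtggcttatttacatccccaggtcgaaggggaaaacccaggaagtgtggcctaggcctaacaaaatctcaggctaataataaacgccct
The letters TATAAA lie 29 to 24 bases before the start of *Tnf* and 114 to 109 bases before the start of *Tnfrsf17*, and are in neither strand of the *Tnfrsf13b* window. Of the 10 genes, 8 had a window in the RefSeq table, and these 2 were the ones with a match on either strand. Of all 32851 windows, 12.4% held one. The letters GGGNNTTTC, a form of the NF-κB site, were in 3.72% of all windows on either strand and in no window of these 8 genes. The letters GAGGAAGT, a form of the site of PU.1, the factor that shapes the myeloid lineage, were in 2.44% of all windows. They were in no window of these 8 genes. Bases outside the windows and other forms of these sites were not searched. No matches of different motifs overlapped, and a match is a description of the sequence and not a measured site.

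*Tnf* (ENSMUSG00000024401, chromosome 17, 35199381 to 35202007, minus strand, GRCm38) encodes the founding ligand, an inducer of inflammation and of death signals. Its values in controls 1 to 6 were 231, 59.7, 289, 89.3, 72.3 and 141 normalized counts. In CNV d3 samples 1 to 6 they were 223, 340, 702, 246, 249 and 318 normalized counts. All 6 CNV d3 samples lay above 4 of the 6 controls, and the groups overlapped, since controls 1 and 3 were above CNV d3 replicate 1. The mean was 147 ± 93.7 (SD, n = 6) in the controls and 346 ± 180 (SD, n = 6) in CNV d3, 2.35 times the control mean. The log2 fold change on the log2(normalized counts + 1) scale was 1.35 (SE 0.41, limma adjusted p = 0.0402), and the two-sided exact permutation p of the difference was 0.0173. In the 12 fits with 1 sample left out, the log2 fold change was between 1.12 and 1.59. The call lay close to the threshold. It was kept without control 1 or without control 3 and was lost without any 1 of the other 10, where the adjusted p reached 0.118 (without CNV d3 replicate 3, log2 fold change 1.12). With all reads thinned to the depth of the shallowest sample the log2 fold change was 1.34 and limma's adjusted p was 0.0729, and edgeR gave 1.25 with an adjusted p of 0.0556. CNV d3 replicate 3, with the highest *Tnf*, also had the highest sum of monocyte markers (7413) and the lowest sum of microglia markers (482428), and whether these cells carried the reads was not tested.

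The other ligands did not pass the test. *Tnfsf12* (ENSMUSG00000097328, chromosome 11, 69686250 to 69695849, minus strand) encodes TWEAK, a soluble ligand that acts on tissue repair and vessel growth. It was at 125, 138, 120, 55.8, 95.4 and 125 normalized counts in controls 1 to 6 and at 146, 205, 162, 168, 149 and 146 in CNV d3 samples 1 to 6. The groups did not overlap, although the highest control and the lowest CNV d3 sample lay close together. Its log2 fold change was 0.61 (SE 0.27, limma adjusted p = 0.169), and the exact permutation p was 0.00216, the smallest that 6 against 6 samples can give. DESeq2 called it (0.57, adjusted p = 0.0439). The measurement is uncertain in 1 respect. In the annotation, 731 of its 1515 exon bases are shared with the readthrough gene *Tnfsfm13*, and default counting leaves out reads that fit more than 1 gene. *Tnfsfm13* itself held 0 to 16 reads in the controls and 8 to 29 in CNV d3, against 55 to 136 and 176 to 245 for *Tnfsf12*.

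*Tnfsf9* (ENSMUSG00000035678, chromosome 17, 57105325 to 57107757, plus strand) encodes 4-1BBL, which costimulates T cells. Controls 2, 3 and 4 had no reads, where 3 reads would have been 3.04 to 3.38 normalized counts, and controls 1, 5 and 6 were at 14.0, 38.1 and 25.8. CNV d3 samples 1 to 6 were at 36.9, 35.1, 68.0, 11.3, 45.7 and 30.7 normalized counts. Reads were found in all 6 CNV d3 samples, and the groups overlapped through CNV d3 replicate 4 and controls 1, 5 and 6. Its fitted log2 fold change was 2.79 with an SE of 1.08, and limma's adjusted p was 0.111. Of its 1290 exon bases, 192 are shared with *Gm11110*.

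*Tnfsf8* (ENSMUSG00000028362, chromosome 4, 63831308 to 63861347, minus strand) encodes CD30L, the ligand of CD30. It spread widely among the controls, from 311 over a median of 525 to 894 normalized counts, and from 527 over 755 to 961 in CNV d3. Controls 1, 2 and 6 lay in the range of the CNV d3 samples and controls 3, 4 and 5 under it. On the log2 scale the change was 0.51 (SE 0.27, limma adjusted p = 0.275).

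*Tnfsf13b* (ENSMUSG00000031497, chromosome 8, 10006467 to 10039072, plus strand), the BAFF gene, had the most reads of the 5 ligands. It was at 3645, 3730, 3197, 2853, 3444 and 3765 normalized counts in controls 1 to 6, and at 2975, 2475, 1727, 3363, 2548 and 2352 in CNV d3 samples 1 to 6. Of the CNV d3 samples, 4 lay under the lowest control, and replicates 1 and 4 lay within the control range. The log2 fold change was -0.44 (SE 0.14) with limma's adjusted p at 0.0516, close to the threshold. It passed without control 4 (-0.49, adjusted p = 0.0482) and without CNV d3 replicate 4 (-0.52, adjusted p = 0.0257). DESeq2 gave -0.42 with an adjusted p of 0.0213.

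Among the receptors, *Tnfrsf17* (ENSMUSG00000022496, chromosome 16, 11313812 to 11320074, plus strand) had the largest fall. It encodes BCMA, known from plasma cells, where it binds APRIL and BAFF. Controls 1 to 6 were at 310, 219, 216, 221, 330 and 244 normalized counts. CNV d3 samples 1 to 6 were at 193, 100, 71.6, 165, 93.7 and 40.7 normalized counts. Every CNV d3 sample lay under every control, with the lowest value in replicate 6. The mean went from 257 ± 50.6 (SD, n = 6) to 111 ± 57.5 (SD, n = 6), 0.431 times the control mean, and the log2 fold change was -1.36 (SE 0.34, limma adjusted p = 0.0159). The exact permutation p of 0.00216 is the smallest possible. It passed in all 12 fits with 1 sample left out, between -1.55 and -1.11, and in the 8 other settings, thinning to equal depth among them.

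B and plasma cell markers were low in part. Of 14 such markers 8 were analysed, and none of them passed the test in either direction. *Jchain*, which joins secreted antibodies, had no reads in any control and 0 to 8.87 normalized counts in CNV d3, and *Cd79a* was at 0 to 30.4 in the controls and 0 to 5.37 in CNV d3. *Ighm*, the μ heavy chain gene, was however at 12220 ± 575 and 11538 ± 1404 (SD, n = 6 each), and *Cd79b* at 1315 ± 319 and 1075 ± 282. *Ighd* went from 391 ± 196 to 191 ± 31.5 (SD, n = 6 each), with overlap (log2 fold change -0.87, limma adjusted p = 0.0931). The median log2 fold change of the 8 markers was 0.34. Their sums were 12679 to 15507 normalized counts in the controls and 10332 to 15150 in CNV d3, ranges that overlap. *Ighm* made up most of each sum, so the sums say little of the other markers. *Ms4a1* and *Pax5* were not analysed here. The microglia marker sums, which fell along with *Tnfrsf17*, do not overlap between the groups, and their part in its fall was not tested.

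*Tnfrsf13b* (ENSMUSG00000010142, chromosome 11, 61126755 to 61149372, plus strand) encodes TACI, which binds the same ligands. Its values went from 2086 over a median of 3571 to 3935 normalized counts in the controls and from 2280 over 2957 to 3828 in CNV d3. The CNV d3 samples lay wholly inside the control range. The log2 fold change was -0.12 (SE 0.16, limma adjusted p = 0.617). Whether its change differed from that of *Tnfrsf17* was not tested.

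Both TNF receptors were at high levels. *Tnfrsf1a* (ENSMUSG00000030341, chromosome 6, 125349362 to 125362484, plus strand) was at 5838, 5665, 7597, 4824, 6416 and 6275 normalized counts in controls 1 to 6. It was at 4835, 5171, 4587, 5315, 4502 and 4536 in CNV d3 samples 1 to 6. The groups overlapped through control 4, which was lower than 3 CNV d3 samples, and the other 5 controls were above all CNV d3 samples. The log2 fold change was -0.33 (SE 0.10, limma adjusted p = 0.0439), a CNV d3 mean of 0.791 times the control mean, and the exact permutation p was 0.0108. The call was kept without control 4 or without CNV d3 replicate 4 and lost without any 1 of the other 10 samples, where the log2 fold change was between -0.35 and -0.26. It was also lost at equal depth (-0.33, adjusted p = 0.0643), with edgeR (-0.32, adjusted p = 0.0576) and with TMM normalization (-0.31, adjusted p = 0.0559).

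*Tnfrsf1b* (ENSMUSG00000028599, chromosome 4, 145213463 to 145246870, minus strand) did not pass. It ranged from 10875 over a median of 12649 to 13600 normalized counts in the controls and from 10570 over 11120 to 13125 in CNV d3. Of the CNV d3 samples 5 lay under the 5 higher controls, and replicate 4 lay among them. The log2 fold change was -0.14 (SE 0.07, limma adjusted p = 0.249).

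The ratio of the receptors within a sample does not depend on the size factor. The normalized counts of *Tnfrsf1b* were 2.11, 2.33, 1.66, 2.25, 2.12 and 2.02 times those of *Tnfrsf1a* in controls 1 to 6 and 2.28, 2.17, 2.39, 2.47, 2.35 and 2.48 times in CNV d3 samples 1 to 6. The ratio was highest in CNV d3 replicates 4 and 6 and lowest in control 3, and the groups overlapped. On the log2 scale its mean was 1.05 ± 0.17 in the controls and 1.23 ± 0.07 in CNV d3 (SD, n = 6 each), a difference of 0.19 with an exact permutation p of 0.0152 (two-sided). Without any 1 sample the difference was between 0.12 and 0.22, with exact permutation p from 0.00866 to 0.0411.

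*Tnfrsf11a* (ENSMUSG00000026321, chromosome 1, 105780718 to 105847981, plus strand) encodes RANK, which drives osteoclasts from myeloid precursors. It was at 4613 over a median of 5025 to 6339 normalized counts in the controls and at 3802 over 5831 to 6419 in CNV d3. The lowest value was in CNV d3 replicate 3, and CNV d3 replicates 1 and 4 lay above the highest control. The log2 fold change was 0.07 (SE 0.13, limma adjusted p = 0.746).

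**Figure D2:**
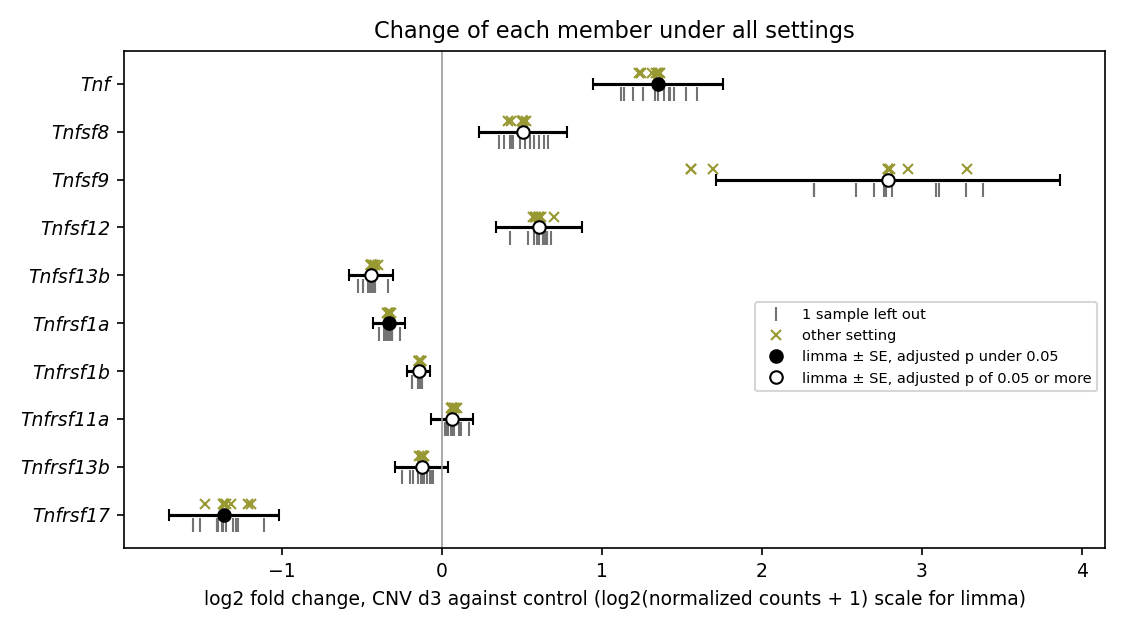
Log2 fold change of the 10 genes (x axis, CNV d3 against control), as a circle with its SE from limma, filled where the adjusted p was under 0.05, with the values of the 12 fits that leave out 1 sample as grey strokes and those of 8 other settings as crosses. No value crosses 0, and *Tnfsf9* varies most, from 1.56 to 3.38.

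Per kb of exon, 4 of the 5 receptors were above all 5 ligands in both groups, and *Tnfrsf17* was not. In the controls *Tnfrsf1b* was highest at 3286 ± 245 normalized counts per kb (SD, n = 6), before *Tnfrsf1a* at 2355 ± 356, *Tnfrsf13b* at 1155 ± 264 and *Tnfrsf11a* at 885 ± 126. *Tnfsf13b* followed at 501 ± 51.9, *Tnfrsf17* at 315 ± 62.0, *Tnfsf8* at 150 ± 67.5, *Tnf* at 89.7 ± 57.1, *Tnfsf12* at 72.5 ± 19.7 and *Tnfsf9* at 10.1 ± 12.5. Neighbours whose ranges overlapped were *Tnfrsf1b* with *Tnfrsf1a*, *Tnfrsf13b* with *Tnfrsf11a*, *Tnfsf8* with *Tnf*, and *Tnf* with *Tnfsf12*. *Tnfrsf1b* was however above *Tnfrsf1a* in 6 of 6 controls. In CNV d3 the first 5 places were the same, and *Tnf* came sixth at 211 ± 110, before *Tnfsf8* at 200 ± 44.1, *Tnfrsf17* at 136 ± 70.6, *Tnfsf12* at 107 ± 14.9 and *Tnfsf9* at 29.4 ± 14.4. In CNV d3, *Tnfrsf13b* overlapped with *Tnfrsf11a*, and each of *Tnfsf13b*, *Tnf*, *Tnfsf8* and *Tnfrsf17* with the next in this order. The place of *Tnfsf12* depends on the exon bases it shares with *Tnfsfm13*. Over its 784 unshared bases alone, a calculation added after the data were seen, it was at 140 ± 38.1 per kb in the controls and 207 ± 28.9 in CNV d3, above *Tnf* in the controls and close to it in CNV d3.

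**Figure D3:**
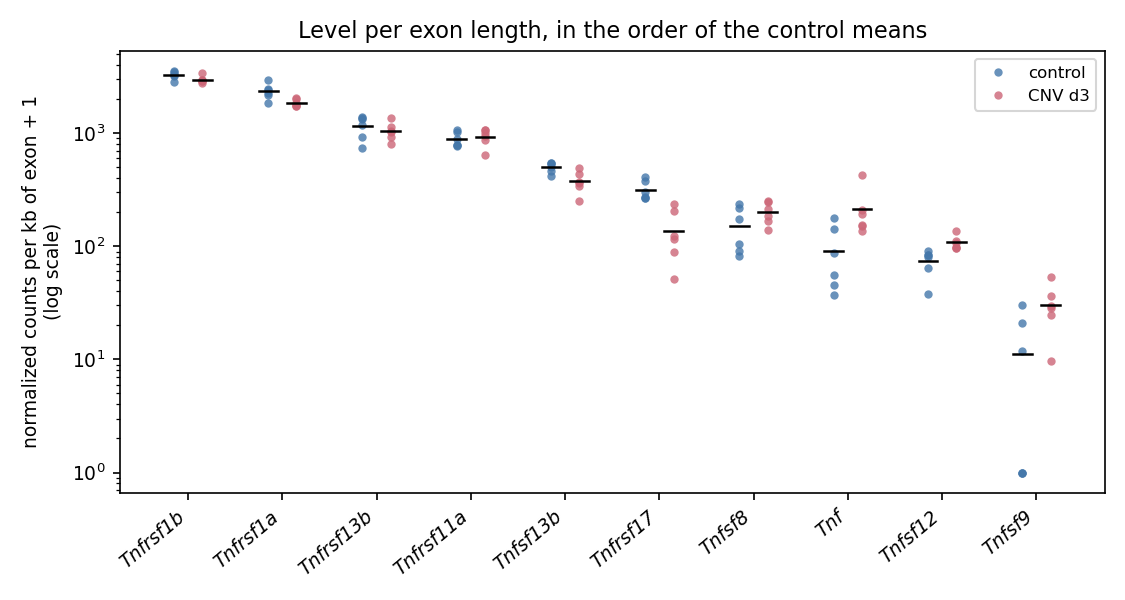
Normalized counts per kb of exon plus 1 (log axis) of the 10 genes in each sample, in the order of the control means, with the group mean as a line. The receptor genes *Tnfrsf1b* and *Tnfrsf1a* lead in both groups, and *Tnfrsf17* drops from 315 to 136 per kb. *Tnfsf12* is divided by all its exon bases.

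The binding partners of these genes were mostly scarce. *Tnfrsf8*, which encodes CD30, the receptor of CD30L, rose from 4.05 ± 9.92 to 26.5 ± 8.82 normalized counts (SD, n = 6 each), with no reads in 5 of 6 controls (log2 fold change 3.96, limma adjusted p = 0.00744). The call was lost with edgeR (adjusted p = 0.194) and DESeq2 (adjusted p = 0.132). *Tnfrsf9*, which encodes 4-1BB, was at 0.179 ± 0.438 and 18.2 ± 17.1 normalized counts and did not pass (limma adjusted p = 0.0567), while edgeR (adjusted p = 0.0199) and DESeq2 (adjusted p = 0.00529) called it. *Tnfrsf12a*, which encodes the TWEAK receptor Fn14, was at 78.0 ± 49.1 and 103 ± 20.8 (limma adjusted p = 0.426). *Tnfsf13*, the APRIL gene, was at 11.2 ± 9.45 and 18.5 ± 6.73, and 60.0% of its exon bases overlap other genes. *Tnfrsf13c*, which encodes the BAFF receptor, had no reads in any control and 6.03 ± 4.74 normalized counts in CNV d3, where 3 reads per control library would be 3.01 to 5.96. It passed limma at an adjusted p of 0.0400, not at equal depth (adjusted p = 0.0630) nor with DESeq2 (adjusted p = 0.0860), and the call was lost in 10 of 12 fits with 1 sample left out, with adjusted p up to 0.107. *Lta* and *Tnfrsf11b*, which encode lymphotoxin and the RANKL decoy osteoprotegerin, had no reads in any control and reads in 1 CNV d3 sample each. *Tnfsf11*, the RANKL gene, was not analysed here.

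Of the 9 other ligands analysed, none passed limma in either direction. *Tnfsf10*, which encodes the death ligand TRAIL, had the highest values of them, 495 ± 262 and 767 ± 242 normalized counts (limma adjusted p = 0.215). Of 22 other receptors, 5 rose (*Tnfrsf18*, *Tnfrsf8*, *Tnfrsf4*, *Cd40* and *Tnfrsf13c*), 2 fell (*Cd27* and *Tnfrsf21*) and 15 did not pass. *Tnfrsf18*, which encodes the costimulatory receptor GITR, rose from 0.675 ± 1.65 to 16.5 ± 9.72 normalized counts and passed in all 12 fits with 1 sample left out. Of its 1524 exon bases, 414 are shared with *Gm16008*. *Tnfrsf4*, the OX40 gene, rose from a range of 0 to 5.96 to a range of 1.73 to 45.6 (limma adjusted p = 0.0197), a call lost with edgeR (adjusted p = 0.0666). *Cd40*, through which T cells act on antigen-presenting cells, rose from 30.3 ± 45.9 to 125 ± 35.2, but the call was kept in 2 of the 12 fits with 1 sample left out. The *Cd40* call was also lost with edgeR (adjusted p = 0.177) and DESeq2 (adjusted p = 0.125). Apart from *Cd40*, the genes that rose had low values, and the CNV d3 libraries were deeper. With reads thinned to the shallowest sample, *Tnfrsf18*, *Tnfrsf8*, *Tnfrsf4* and *Cd40* still passed limma (adjusted p = 0.00125, 0.0194, 0.0204 and 0.0443). *Tnfrsf13c* did not (adjusted p = 0.0630). Beside these stand the monocyte and dendritic cell sums given above. The sum of 8 T and NK cell markers, none of which passed, was 0 to 14.1 in the controls and 2.96 to 37.6 in CNV d3. The part of these cell types was not tested. *Cd27*, a lymphocyte receptor, fell from 54.6 ± 26.1 to 12.1 ± 6.91 with no overlap (log2 fold change -2.17). Its call was lost in 2 of 8 other settings, edgeR among them (adjusted p = 0.0532), with adjusted p up to 0.0639. *Tnfrsf21*, which encodes death receptor 6, fell from 11802 ± 1276 to 9632 ± 950 (log2 fold change -0.29, limma adjusted p = 0.0381). Whether the *Tnfrsf21* call holds in the other settings was not examined. The whole family as analysed, 41 genes, held 6 higher and 4 lower, with a median log2 fold change of 0.51, beside 8.29% higher and 4.57% lower and a median of 0.15 over all genes. Of the 41 genes, 26 had a mean of at least 10 normalized counts. Several of the others had no reads in any control and a few in the deeper CNV d3 libraries, which gives a positive fitted value.

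**Figure D4:**
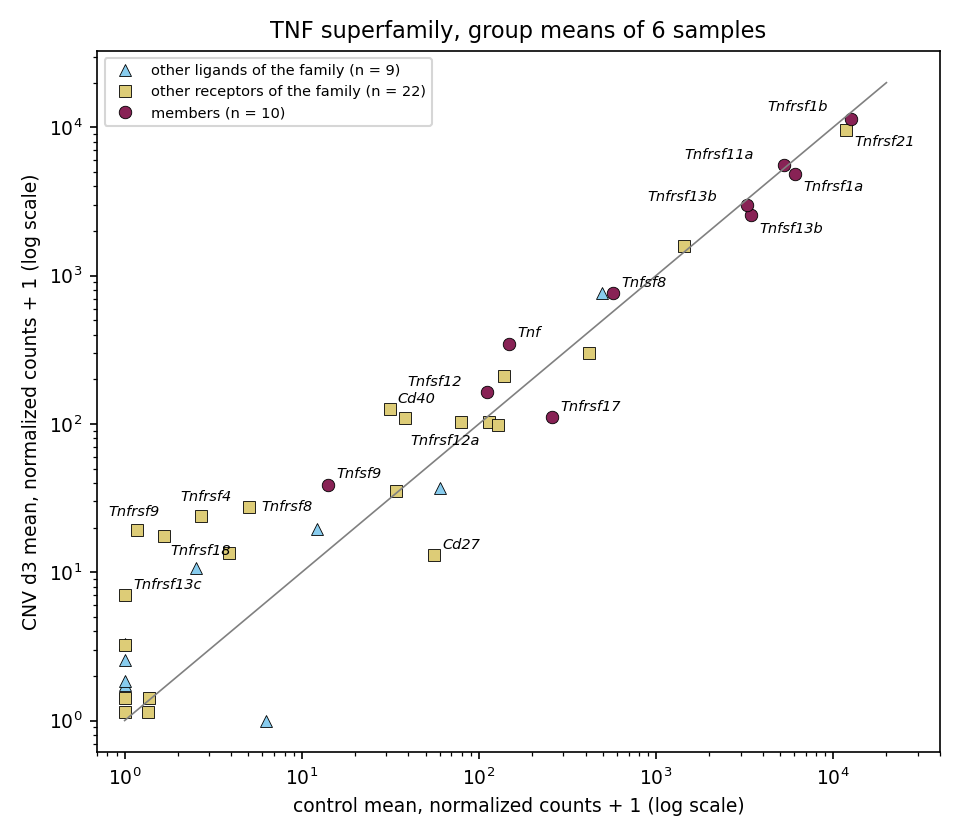
Mean normalized counts plus 1 of each gene of the family in the controls (x axis) and in CNV d3 (y axis), both on log scales, with circles for the 10 genes described, triangles for other ligands and squares for other receptors, and the diagonal marking equal means. *Tnfrsf17* and *Cd27* lie under the diagonal, and *Tnf*, *Cd40* and several receptors with control means near 0 lie above it.

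Genes that process the ligands and genes that act on the signal of the receptors were counted by list. Of 6 genes of ligand processing and shedding, 3 rose and none fell, where 8.29% of all genes rose and 4.57% fell. *Adam17*, the TNF convertase, went from 8497 ± 862 to 10377 ± 939 normalized counts (log2 fold change 0.29, limma adjusted p = 0.0365), a call lost in 6 of 12 fits with 1 sample left out. *Rhbdf2*, which brings ADAM17 to the surface, went from 799 ± 188 to 1301 ± 296 (log2 fold change 0.71), a call lost in 4 of these fits. *Furin*, which activates ADAM17, went from 1602 ± 348 to 2678 ± 184, with every CNV d3 sample above every control (log2 fold change 0.76). Of 9 brakes on the signal, 3 fell and none rose, beside the same 4.57% and 8.29% of all genes. *Nfkbia*, which encodes the NF-κB inhibitor IκBα and is itself an NF-κB target, fell from 4264 ± 422 to 2346 ± 483 with no overlap (log2 fold change -0.88, limma adjusted p = 0.000356). *Nfkbie* and *Tnfaip8l2* had log2 fold changes of -0.70 and -0.46. *Tnfaip3*, the A20 gene, did not pass (-0.34, limma adjusted p = 0.246).

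Among 26 adaptors and enzymes at the receptors, 2 rose (*Map3k7*, the TAK1 gene, by a log2 fold change of 0.81, a call lost without CNV d3 replicate 3 or 5, and *Rbck1*, a part of the linear ubiquitin ligase, by 0.42, a call lost in 7 of 12 fits with 1 sample left out), and *Birc3*, which encodes cIAP2, fell (-0.46), a call lost in 1 of 8 other settings (adjusted p = 0.0551). The other 23 did not pass. Of all genes 8.29% rose and 4.57% fell, and the counts in this list lie near these shares. But all 26 genes of the list had a mean of at least 10 normalized counts. Larger shares were called in the fit of only the 12753 genes with at least 10 normalized counts in 6 samples, 2160 higher and 1544 lower. Of 6 genes that act on the decay of *Tnf* mRNA, *Zfp36l1* fell (-0.56, limma adjusted p = 0.0143), where 4.57% of all genes fell. Of the 2990 exon bases of *Zfp36l1*, 1672 are shared with *Gm26669*. The other 5 genes of mRNA decay did not pass, among them *Zfp36*, which encodes tristetraprolin (0.12, limma adjusted p = 0.529). Of 10 genes known as RANK and osteoclast targets, 2 rose and 2 fell, beside the same 8.29% and 4.57% of all genes. *Acp5*, the tartrate-resistant acid phosphatase gene, rose from 5.55 ± 8.61 to 120 ± 58.2 normalized counts, 21.6 times the control mean (log2 fold change 5.39, limma adjusted p = 0.00138). Since 4 of 6 controls had no reads, its fitted value depends on the pseudocount, and it was 3.80 with a pseudocount of 5 and 4.38 with edgeR. *Mmp9*, a matrix protease gene, had no reads in any control and 14.7 ± 15.2 in CNV d3. This mean was 4.08 times the mean value of 3 reads per control library (3.61), but CNV d3 replicates 1, 2 and 4 were at 2.96, 0.836 and 0. The *Mmp9* call was lost at equal depth (adjusted p = 0.0765) and in 2 of the 6 other settings that gave a value. It was also lost in 10 of 12 fits with 1 sample left out (adjusted p up to 0.0978). *Nfatc1*, the transcription factor of the osteoclast program, and *Itgb3*, an integrin gene, fell, with log2 fold changes of -0.49 and -0.60.

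The genes whose pattern over the 12 samples was most like that of the genes that changed were sought among 9423 protein-coding genes with a mean of at least 100 normalized counts. For *Tnf* they included *Isg15* (Pearson r 0.95) and *Ube2m* (0.93). For *Tnfrsf1a* they were *Ube2j2* (0.96), *Tlcd2* (0.96) and *Nudt16* (0.94), and for *Tnfrsf17* they were *Gp9* (0.95), *Ptpre* (0.95) and *Pttg1ip* (0.94). The samples share the contrast between the groups and their difference in depth, so these likenesses are descriptions only. *Isg15*, an interferon-induced gene, had values of 900 ± 740 in the controls and 1740 ± 628 in CNV d3.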

How the data were processed

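RNA-seq was made from sorted retinal microglia, 6 CNV d3 and 6 control samples. For the controls and for CNV d3 replicate 4 the labels list 2 parts, taken here as 1 sample each. Per the submitters' processing notes and the methods, reads were mapped with STAR 2.7.2b (GRCm38, Gencode M25) and counted with featureCounts 1.6.4 at default parameters, which ignore strand. The authors divided the counts by the size factors of DESeq2 1.22.2, and this signal, the normalized counts, was deposited. They also deposited group means, log2 fold changes and adjusted p-values, which were not used.

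The PCR copies carry no molecular identifiers, so floors of 3 reads cover counting error only. 1 read was worth 0.739 to 1.99 normalized counts, and 100% of the values were whole multiples of it (tolerance 0.001), so reads were recovered. Values were tested with limma 3.58.1 (R 4.3.3) on log2(normalized counts + 1), with a variance trend and Benjamini-Hochberg adjustment over 27299 genes. Single values were compared by a two-sided exact permutation test over all labelings of the samples. On recovered reads, edgeR 4.0.16 called 1952 genes higher and 1181 lower, and DESeq2 1.42.0 served as a further alternative. Other alternatives were TMM normalization, a filter, pseudocounts of 0.5 and 5, the replicate block, thinning to the shallowest sample and leaving out each sample. All 3 tools were run on simulated counts in which only genes with higher counts were given a change. A limit on false calls was set for limma and edgeR and not for DESeq2.

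Named genes were the 10 genes, their binding partners, up to 5 genes of lowest adjusted p per list, and 3 genes of most similar pattern, of which 1 is not reported here. Other genes named with values were chosen after their values were seen. The genes, lists and motifs were chosen with earlier results of these data known. Coordinates and exon lengths came from Gencode M21 (GRCm38), which matched 27238 genes, and promoters from RefSeq (GRCm38.p6). Protein sequences were not used here.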

Additional observations from a re-analysis of the deposited data

Results flagged for a closer look

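For 2 of the 10 genes, 1 CNV d3 sample stood apart from the other 5 of its group by more than Dixon's 95% limit for 6 samples (a gap of 0.625 of the range). *Tnf* was highest in CNV d3 replicate 3, at 702 normalized counts, with a gap of 0.757 of the range. *Tnfrsf1b* was highest in CNV d3 replicate 4, at 13125 normalized counts, with a gap of 0.727 of the range. Chance alone sets off this rule in about 1 of 20 groups, and 20 groups of 6 samples were looked at. Replicate 3 had the highest sum of monocyte markers of the CNV d3 samples (7413 normalized counts) and replicate 4 the lowest (3054), and the part of this in either value was not tested. Without replicate 3 the log2 fold change of *Tnf* was 1.12 (limma adjusted p = 0.118). Without replicate 4 that of *Tnfrsf1b* was -0.19 (limma adjusted p = 0.0637).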

How the results depend on the processing

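No direction turned for any of the 10 genes in the 20 alternatives run. *Tnfrsf17* passed in all of them, and *Tnfsf8*, *Tnfsf9*, *Tnfrsf1b*, *Tnfrsf11a* and *Tnfrsf13b* passed in none. *Tnf* lost its call with edgeR (1.25), a pseudocount of 5 (1.32) and thinned reads (1.34), and *Tnfrsf1a* with edgeR (-0.32), TMM normalization (-0.31) and thinned reads (-0.33). *Tnfsf13b* passed with DESeq2 (-0.42), the filter on low values (-0.44) and a pseudocount of 0.5 (-0.44), and *Tnfsf12* with DESeq2 (0.57). The number of these genes higher was 0 with edgeR, a pseudocount of 5 and thinned reads, and 2 with DESeq2. The number lower was 1 with edgeR, TMM normalization and thinned reads, and 3 with DESeq2, the filter and a pseudocount of 0.5. Both were 0 with an absolute log2 fold change above 1.5. With 1 sample left out, 0 to 1 genes were higher and 1 to 3 lower, and the log2 fold change was 1.12 to 1.59 for *Tnf*, -0.39 to -0.26 for *Tnfrsf1a* and -0.52 to -0.33 for *Tnfsf13b*. The causes were not tested.

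Replicate numbers did not pair the samples (correlations of deviations from -0.05 to 0.07). With the replicate block *Tnfrsf1a* was at -0.33 with an adjusted p of 0.111, 1 gene was lower, and 1885 of all genes were higher and 975 lower. *Tnf* and *Tnfrsf17* passed with the block.

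Depth limits the low genes. 3 reads were worth 3.01 to 5.96 normalized counts in the controls and fewer in CNV d3.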
